A study of Mus musculus with 1 sample.

Results

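The cells described here are those of a mouse gastric organoid library that were selected on the summed UMIs of Mcm3, Mcm5, Mcm6 and Pcna, and they are called members. A UMI (unique molecular identifier) marks 1 captured transcript. The library held 1991 barcodes, and 1892 were kept: those with 500 or more genes detected and with mitochondrially encoded genes giving no more than 20% of their gene UMIs. For each of 8 gene sets, the summed UMIs per 10000 gene UMIs of a cell were transformed as ln(1 + x) and turned into a z-score over the kept cells. The members were chosen by the rule that the z of Mcm3, Mcm5, Mcm6 and Pcna, the licensing set, was the highest of the 8 and was at least 1. This rule gave 179 members, or 9.46% of the kept cells (95% exact Clopper-Pearson interval 8.18% to 10.9%), and the 1713 other kept cells were set against them. The other 7 sets were Scgb3a1 with Cyp2f2, Ndrg1 with Ly6m, Mt1 with Mt2, Cxcl2 with Cxcl5, Psca with Prss22, a mitotic set (Top2a, Mki67, Aspm and Hmmr), and Cyba with Gsta1 and Gsta2.

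The study measured single-cell transcriptomes of gastric organoids, which are balls of epithelial cells grown in culture, and the single library analysed here is labelled as wild type and untreated. Its organoids were taken on day 7 after seeding and made into single cells in 0.05% trypsin-EDTA for 30 min at 37 °C, per the labels' protocols. Libraries were made with a droplet kit that captures the 3′ end of transcripts. Organoids of other genotypes that the series text names were not analysed here.

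Before a cell copies its DNA, the origin recognition complex, Cdc6 and Cdt1 load rings of the 6 proteins Mcm2 to Mcm7 onto origins of replication, a step called licensing. When S phase starts, Cdc45 and the GINS proteins turn each ring into an active helicase, and Pcna forms the sliding clamp that holds DNA polymerase on the template. Transcripts of these genes are raised by E2F transcription factors around the passage from G1 to S phase, and those of mitotic genes peak later, in G2 and M phase. In the stomach, dividing cells lie mainly in the isthmus of the gland, between the mucous pit cells and the gland base.

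The 4 genes of the rule are on chromosomes 1, 8 and 2. In GENCODE M21, which uses GRCm38, Mcm3 spans chr1:20802968-20820312 (minus strand), Mcm5 chr8:75109569-75128439 (plus strand), Mcm6 chr1:128331590-128359664 (minus strand) and Pcna chr2:132249162-132253314 (minus strand). Mcm3, Mcm5 and Mcm6 encode subunits of the ring, and Pcna encodes the clamp. RefSeq promoter windows (GRCm38.p6, 250 bases before to 50 bases after a start site) were searched on both strands for TTTCCCGC and TTTGGCGC, 2 forms of the site that E2F factors bind, whose reverse complements are GCGGGAAA and GCGCCAAA. Stretches around the matches are shown because the members were chosen on genes of this kind. They run 5′ to 3′ on the gene's strand and are 30 bases long, with the match in capitals.
Mcm3, chr1:20820275-20820304: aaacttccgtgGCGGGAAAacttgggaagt
Mcm5, chr8:75109349-75109378: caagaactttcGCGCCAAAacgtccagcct
Mcm6, chr1:128359797-128359826: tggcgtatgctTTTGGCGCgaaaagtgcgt
Mcm7, chr5:138172030-138172059: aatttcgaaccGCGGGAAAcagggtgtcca

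Mcm3 and Mcm6 held 2 matches each, at positions 19 and 38 from the start site in Mcm3 and at -110 and -47 in Mcm6. For Mcm6 the 250 bases before the start show both, at chr1:128359706-128359955 on the minus strand.
Mcm6 upstream: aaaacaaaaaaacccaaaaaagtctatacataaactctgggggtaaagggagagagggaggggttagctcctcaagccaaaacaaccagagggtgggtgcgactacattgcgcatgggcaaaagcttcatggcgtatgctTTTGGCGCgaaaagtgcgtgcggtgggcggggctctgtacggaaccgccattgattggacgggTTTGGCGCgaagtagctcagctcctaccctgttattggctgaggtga
Pcna and Mcm2 had no match in the window, and Mcm4 had no window. Mcm7 had 2 windows, and the second held no match. Of the genes with a window, 1.80% held a match, and of those with at least 100 UMIs in the kept cells 3.68% did, against 4 of the 6 genes of the rule or the ring. The next 3 are shown as examples of replication genes described further on, and were picked because they held a match.
Hells, chr19:38930917-38930946: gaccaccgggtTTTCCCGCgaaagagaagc
Rfc3, chr5:151651190-151651219: ctttcgcgctcGCGGGAAAactctactgtc
Pclaf, chr9:65890307-65890336: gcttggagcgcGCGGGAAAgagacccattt
Of the replication genes counted below, 12 of 54 with a window held a match (22.2%). The share was 24.0% among those at least 1.5-fold higher in members and 20.7% among the rest, and no match was found in the windows of 20 mitosis genes. Among all genes at least 1.5-fold higher in members, 17 of 311 with a window held one (5.47%). A match is letters in a window and not measured binding.

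The kept cells held 20118334 gene UMIs, and the median cell had 8512. The single library had no replicate. No difference was therefore tested, cells were not taken as replicates, and the 95% intervals reflect only counting. Those of levels and ratios count UMIs, and those of shares count cells as if drawn independently, so neither holds the spread between cultures. Levels are in CPM, a group's total for a gene scaled to 1000000 gene UMIs. Epithelial markers were at similar levels in members and other cells, from 0.959 times for Cdh1 to 1.19 times for Epcam, and 9 of 11 markers of other tissues had no UMI in members (Col1a1 had 1, and Cd68 had 16). Of the kept cells, 50 had a UMI of a Y-linked gene and 6 of these were members. Leaving out these 50 cells, a choice made after seeing the data, gave 9.39% members and ratios within the counting intervals of the values below. A doublet caller marked 12 cells, of which 1 was a member.

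The score that chose the members rested on few molecules. The 4 genes had 1284 UMIs in the kept cells, 415 of them in members, and 1214 kept cells had none. Of the 179 members, 87 held 1 UMI of these genes, 54 held 2 and 38 held 3 or more, up to 17. One of the 4 genes alone was detected in 110 members, 2 in 51, 3 in 14 and all 4 in 4. Pcna was detected in 142 members and was the only one of the 4 in 81 of them. Mcm6 was detected in 67 members, Mcm3 in 48 and Mcm5 in 13.

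Because 1 UMI weighs more in a shallow cell, depth set who could be a member with a single UMI. All 87 members with 1 UMI had at most 8123 gene UMIs, and the 255 cells with 1 UMI of the rule genes whose z missed 1 had at least 8177. Members had a median of 7290 gene UMIs and 2029 genes, against 8701 UMIs and 2250 genes in the other cells, and median mitochondrial shares were 4.26% and 4.03%. The kept cells were ordered by depth into 3 groups of 631, 629 and 632 cells. Members were 12.04% of the shallowest group (9.61% to 14.8%), 9.70% of the middle group (7.50% to 12.3%) and 6.65% of the deepest group (4.83% to 8.88%), while the share of cells with any UMI of the 4 genes went the other way, from 22.4% to 33.1% and 52.1%. At equal depth, after each cell was thinned to 3000 UMIs, the rule gave 196 members of 1835 cells, and 90 cells were members both times. These were 45.9% of the members after thinning and 50.6% of the 178 original members deep enough to be thinned.

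**Figure D1:**
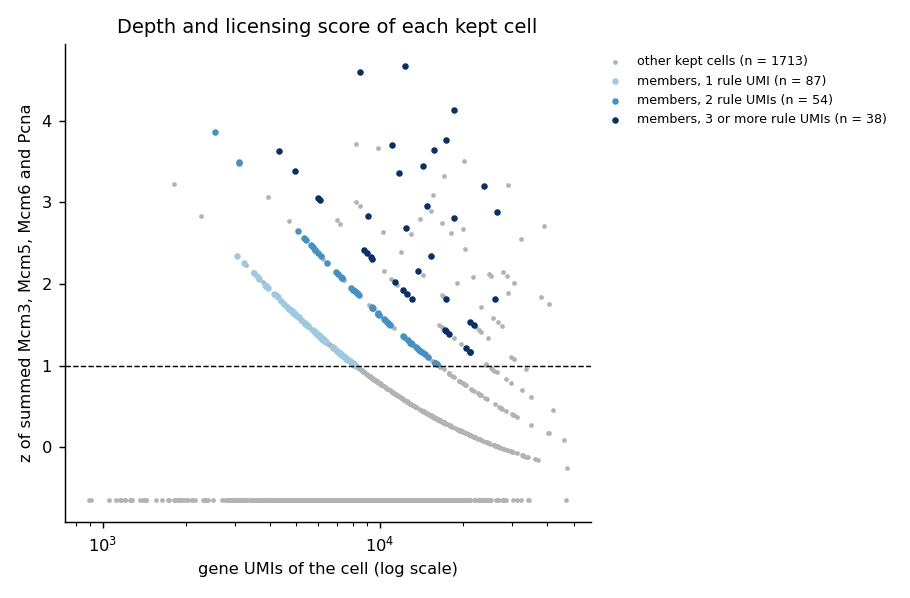
Each point is 1 kept cell, with its gene UMIs on a log axis and the z-score of the licensing set on the vertical axis. The dashed line is z = 1, and points fall on curves because cells with 1 or 2 UMIs of the 4 genes have a z set by depth alone. The 87 members with 1 UMI end at 8123 gene UMIs, where their curve crosses the line. Grey points above the line are cells with another set higher.

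The 10 members just above it had z of 1.005 to 1.029, and the 10 cells just below it, with the licensing set as their highest, had z of 0.902 to 0.987. Both groups had 1 or 2 UMIs of the rule genes and between 7957 and 17830 gene UMIs. Of the 7 lists of other replication genes described below, the first group had a median of 14.5 UMIs per cell and the second a median of 17.5. In all, 18 members had z under 1.1. The choice of the highest set also decided many cells. A licensing z of at least 1 was reached by 373 cells, and in 194 of them another set was higher, most often the mitotic set (67 cells). Conversely, 91 members had a z of at least 1 in some other set, 29 of them in the mitotic set.

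The levels of the 4 rule genes describe the selection and are not findings. Mcm3 was at 48.5 CPM in members and 7.77 in other cells, Mcm5 at 8.81 and 2.43, Mcm6 at 63.6 and 10.2, and Pcna at 140.4 and 26.6. To look at each gene without its own part in the choice, it was dropped from the rule and the members were found again from the other 3. Mcm3 was then 2.70 times as high in members (1.88 to 3.79) in place of 6.24, Mcm5 2.37 times (1.07 to 4.73) in place of 3.63, Mcm6 2.32 times (1.67 to 3.16) in place of 6.27, and Pcna 2.05 times (1.66 to 2.51) in place of 5.29. So each of the 4 was higher in cells chosen on the others, by less than in the cells chosen on all 4.

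The 3 ring subunits outside the rule, Mcm2, Mcm4 and Mcm7, are the closest independent measure. Summed, they were at 68.0 CPM in members (55.8 to 82.1) and 36.4 CPM in the other cells (33.7 to 39.2), a ratio of 1.87 (1.51 to 2.29). They were at 23.6 CPM (19.8 to 27.9) in 523 baseline cells, which had no set at z of 1 or more, and at 115 CPM (99.8 to 133) in the 134 cells led by the mitotic set. Both groups are among the 1713 other cells. Mcm4 was 2.08 times as high in members as in other cells (1.35 to 3.10), Mcm7 1.81 times (1.38 to 2.35) and Mcm2 1.76 times (0.902 to 3.18), and the interval of Mcm2, with 99 UMIs in the kept cells, held 1. A UMI of Mcm7 was found in 19.0% of members and 14.2% of baseline cells. After thinning to 3000 UMIs these shares were 6.74% and 4.18%. The ratio of the 3 summed genes depended on depth and on the threshold: it was 1.09 in the shallowest group of cells, 1.29 in the middle group and 2.73 in the deepest, and 2.89 for the members with z of 1.5 or more.

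Other replication genes were grouped by role in 7 lists of 87 genes, the 3 ring subunits included. Of these, 61 had at least 100 UMIs over the kept cells, the minimum for a ratio to be counted. Against the other cells, 30 of the 61 (49.2%) were at least 1.5-fold higher in members, against 4.56% of all 8653 genes with that many UMIs. None was at least 1.5-fold lower, against 4.45% of all genes. The median ratio of the 61 was 1.47, against 1.03 for all genes, and 56 of them were above 1. Summed, the 7 lists were at 2929 CPM in members (2845 to 3014) and 2200 CPM in other cells (2179 to 2221), a ratio of 1.33 (1.29 to 1.37).

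In single cells the groups overlapped widely. The 7 lists held from 8.01 to 95.2 UMIs per 10000 in members, with a median of 22.0, and from 2.50 to 103 in the other cells, with a median of 19.2. The mitotic-set cells had the highest median, 37.5 (10.8 to 100.1), and baseline cells the lowest, 18.7 (2.50 to 51.3).

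**Figure D2:**
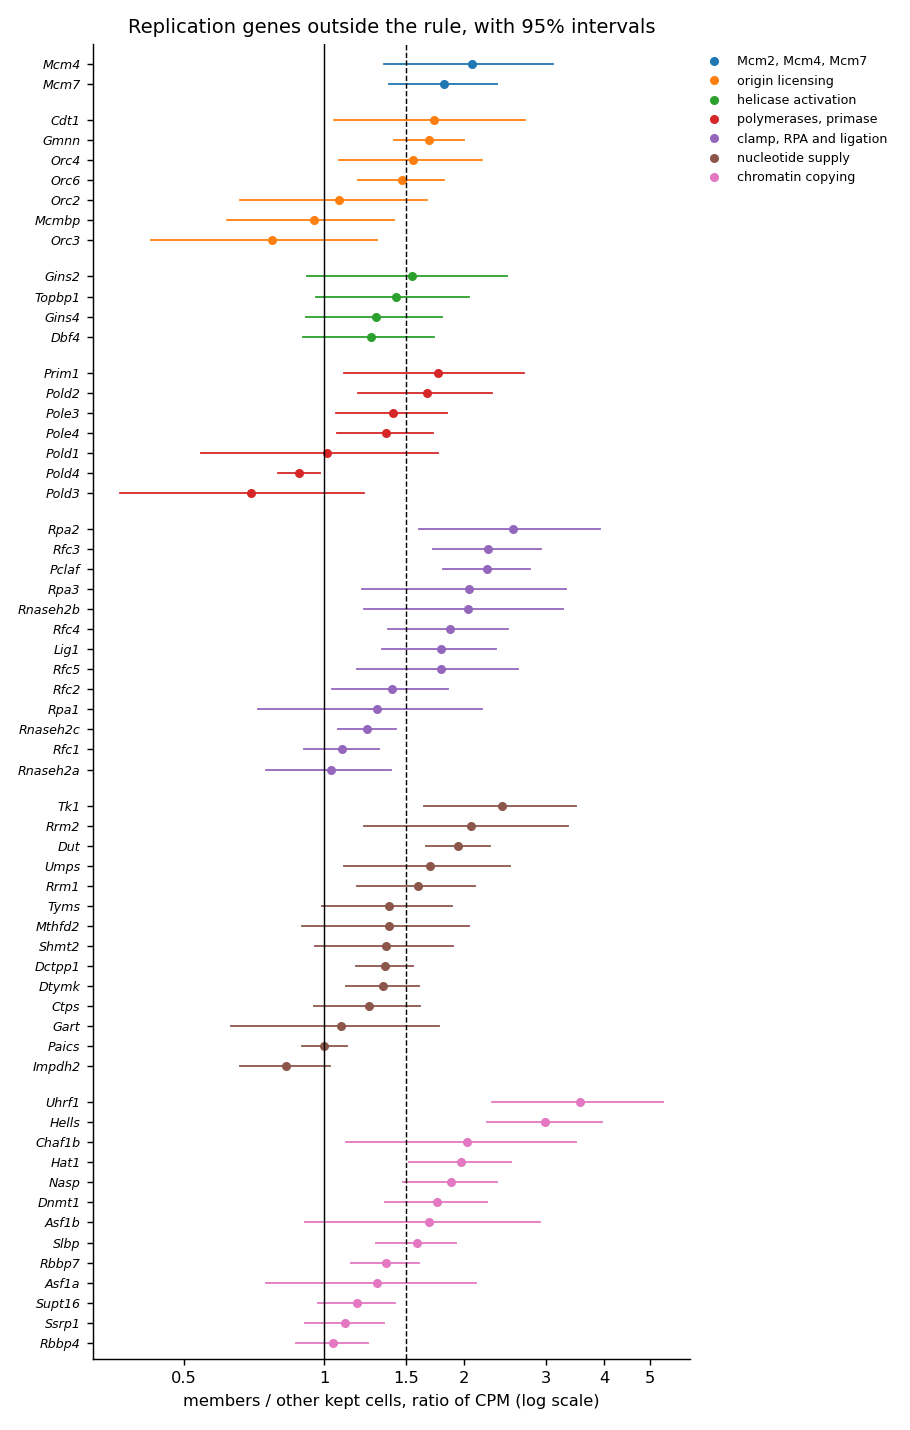
Each point is a replication gene with at least 100 UMIs over the kept cells, ordered within its list, with the ratio of CPM between members and other kept cells on a log axis and its 95% counting interval as a line. Solid and dashed vertical lines mark ratios of 1 and 1.5. Uhrf1 (3.54) and Hells (2.99) are highest, and Orc3 (0.771) is among the few below 1.

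The loading factors differed among themselves. Of 7 origin licensing genes counted, 3 were at least 1.5-fold higher in members than in other cells, where 4.56% of all genes were. Cdt1, which brings the ring to the origin, was at 13.8 and 8.04 CPM, a ratio of 1.72 (1.05 to 2.71). Gmnn, the inhibitor of Cdt1, was at 97.6 and 58.0 CPM, a ratio of 1.68 (1.41 to 1.99). Among the origin recognition complex genes, Orc4 had a ratio of 1.55 (1.08 to 2.19) and Orc6 of 1.47 (1.18 to 1.81), while the intervals of Orc2 (1.07) and Orc3 (0.771) held 1. Helicase activation had 1 of 4 genes past the fold, Gins2 at 1.54, where 4.56% of all genes were. The intervals of all 4 (Gins2, Topbp1, Gins4 and Dbf4) held 1. The 14 genes of that list summed were 1.40 times as high in members as in other cells (1.19 to 1.63).

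Of the polymerase and primase genes, 2 of 7 were past the fold, where 4.56% of all genes were. Prim1, the catalytic primase subunit, had a ratio of 1.76 (1.105 to 2.69), and Pold2, an accessory subunit of polymerase delta, of 1.67 (1.18 to 2.30). Pold4, another accessory subunit, was lower in members, at 249 and 282 CPM (0.883, 0.795 to 0.978), and it supplied most UMIs of the list, whose summed ratio was 1.05 (0.966 to 1.13).

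The genes that load the clamp, coat single strands and join fragments had 8 of 13 past the fold, against 4.56% of all genes. Rpa2, a subunit of the single-strand binding protein, had 16.4 CPM in members and 6.42 in other cells, a ratio of 2.55 (1.60 to 3.92). The clamp loader subunits Rfc3, Rfc4 and Rfc5 had ratios of 2.25 (1.71 to 2.93), 1.86 and 1.78, whereas Rfc1 was at 1.09 (0.906 to 1.31). Pclaf, a small protein that binds the clamp, was at 64.8 and 28.9 CPM, a ratio of 2.24 (1.80 to 2.77). Lig1, which joins Okazaki fragments, had a ratio of 1.78 (1.33 to 2.34).

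Of 15 genes of nucleotide supply, 6 were past the fold, against 4.56% of all genes. Tk1, thymidine kinase, was at 22.7 and 9.39 CPM, a ratio of 2.41 (1.64 to 3.47), the ribonucleotide reductase subunits Rrm2 and Rrm1 had 2.06 and 1.59, and Dut, which removes dUTP, had 1.94 (1.65 to 2.27). The purine synthesis genes Paics and Gart stood at 1.001 and 1.09, and Impdh2 at 0.828 (0.660 to 1.03).

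Chromatin copying had 8 of 13 genes past the fold, against 4.56% of all genes. Uhrf1, which recognises newly copied DNA and recruits the methyltransferase Dnmt1, was at 19.5 and 5.50 CPM, a ratio of 3.54 (2.29 to 5.34), and Dnmt1 had a ratio of 1.75 (1.35 to 2.23). Hells, a chromatin remodeller needed for DNA methylation, was at 40.3 and 13.5 CPM, a ratio of 2.99 (2.23 to 3.94). The histone chaperones Nasp and Chaf1b had 1.88 (1.48 to 2.36) and 2.03 (1.11 to 3.47), and Hat1, which acetylates new histone H4, had 1.97 (1.52 to 2.52). Ssrp1, Supt16 and Rbbp4, which also act outside replication, were between 1.04 and 1.18.

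**Figure D3:**
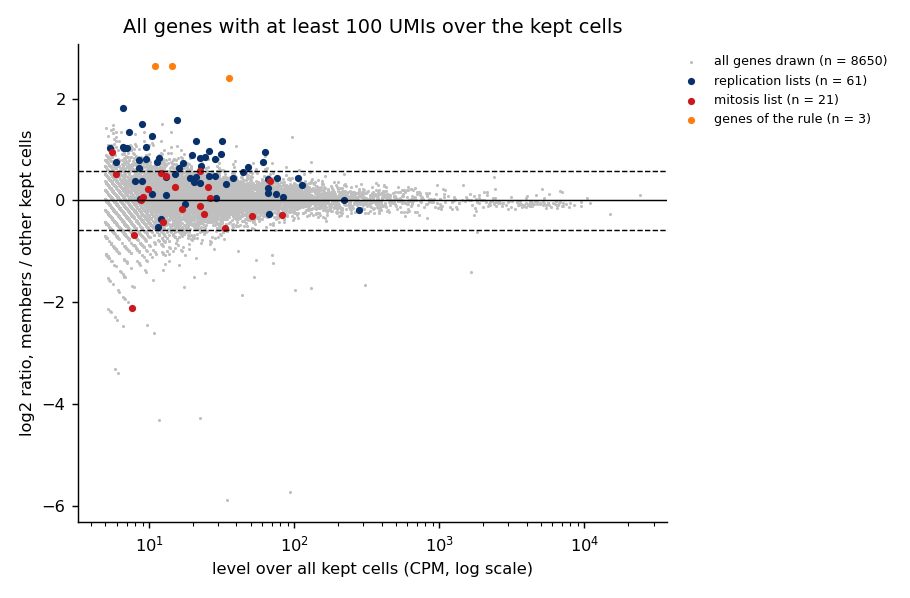
Each grey point is a gene with at least 100 UMIs over the kept cells, with its level on a log axis and the log2 ratio of CPM between members and other cells. Dashed lines mark 1.5-fold in either direction, and the 3 genes with no UMI in members are not drawn. The 3 rule genes drawn are highest because they chose the members, the 61 replication genes lie mostly above 0, and the 21 mitosis genes lie on both sides of 0.

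Against the 523 baseline cells, 39 of the 61 replication genes were at least 1.5-fold higher in members, against 8.77% of all genes, and none was 1.5-fold lower, against 4.32%. The summed ratio was 1.53 (1.48 to 1.58). Against the 134 mitotic-set cells the order turned. None of the 61 was 1.5-fold higher in members, against 6.16% of all genes, and 20 were 1.5-fold lower, against 12.1%. The summed ratio was 0.732 (0.705 to 0.760). Mitotic-set cells were deeper, with a median of 10819 gene UMIs. The rule bounds these 2 comparisons, since baseline cells could not have a licensing z of 1 and a mitotic-set cell could not have a licensing z above its mitotic z.

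The members were then separated by their number of rule UMIs, a separation made after the values had been seen and given as a description. The 87 members with 1 UMI had 1989 CPM of the 7 replication lists (1870 to 2114), which was 1.05 times (0.983 to 1.12) the level of the 417 baseline cells without any rule UMI, 1894 CPM. For Mcm2, Mcm4 and Mcm7 the same members had 19.3 CPM (9.23 to 35.4), against 20.3 CPM in those baseline cells. With each cell thinned to 3000 UMIs, a comparison added after seeing the data, single-UMI members had 6.35 UMIs of the 7 lists per cell and the baseline cells 5.63, which was 1.13 times (1.03 to 1.24), and of the 3 ring subunits they had 4 UMIs in 87 cells against 26 in 396. The 255 non-members with 1 rule UMI, a licensing z under 1 and depth enough for thinning, whichever set led them, had 6.76 UMIs of the 7 lists per thinned cell, no fewer than the single-UMI members. Outside the rule's own genes, the label of high licensing was thus not clearly borne out for single-UMI members. Their mitosis genes, listed further on, were at 237 CPM against 162 CPM (1.46 times, 1.20 to 1.78). The 54 members with 2 UMIs had 2408 CPM of the 7 lists, 1.27 times the baseline (1.20 to 1.35), and 38.7 CPM of the 3 ring subunits (23.6 to 59.7).

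The 38 members with 3 or more UMIs carried most of the difference. They had 4301 CPM of the 7 lists (4130 to 4478), 2.27 times the baseline (2.17 to 2.38), and 141 CPM of Mcm2, Mcm4 and Mcm7 (112 to 176), 6.95 times the baseline (5.02 to 9.64). Their median depth was 14064 gene UMIs, against 6049 in members with 1 UMI, so number of UMIs and depth moved together. With each cell thinned to 3000 UMIs, the ratio of the 7 lists to baseline was 2.39 (2.17 to 2.63). The mitosis genes differed from baseline by more than these lists, at 808 and 162 CPM (4.99 times, 4.41 to 5.65), and 5.16 times (4.02 to 6.58) after thinning. With their 4 cells that had a Y-linked UMI left out, the 7 lists were at 4066 CPM, 2.15 times the baseline. By tag, the level was 4470 CPM in the 24 cells whose highest multiplexing tag was CMO301 and 4016 CPM in the 14 with CMO302.

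Among these 38 cells, several replication genes that baseline cells held at a few CPM were many times higher. Pclaf had 86 UMIs in the 38 cells, or 156 CPM, and 14 UMIs in the 417 baseline cells, or 3.65 CPM, a ratio of 42.7 (24.1 to 81.4). Uhrf1 was at 48.9 and 2.08 CPM (23.5 times, 10.4 to 59.8), Tk1 at 39.9 and 2.35 CPM (17.0 times, 7.52 to 41.9), and Hells at 85.2 and 8.34 CPM (10.2 times, 6.38 to 16.5). Cdc6, which loads the ring together with Cdt1, had 9 UMIs in the 38 cells, 1 in each of the other 2 groups of members, and none in the 417 baseline cells. Mcm10, which acts when the helicase is started, had 13 UMIs in the 38 cells (23.6 CPM) and 7 in the baseline cells (1.82 CPM), a ratio of 12.9 (4.79 to 38.2). Clspn, a fork checkpoint protein, had 18 and 4 UMIs, a ratio of 31.3 (10.3 to 127). The purine synthesis gene Paics, at 227 and 237 CPM, and Pold4, at 212 and 267 CPM, were not higher.

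**Figure D4:**
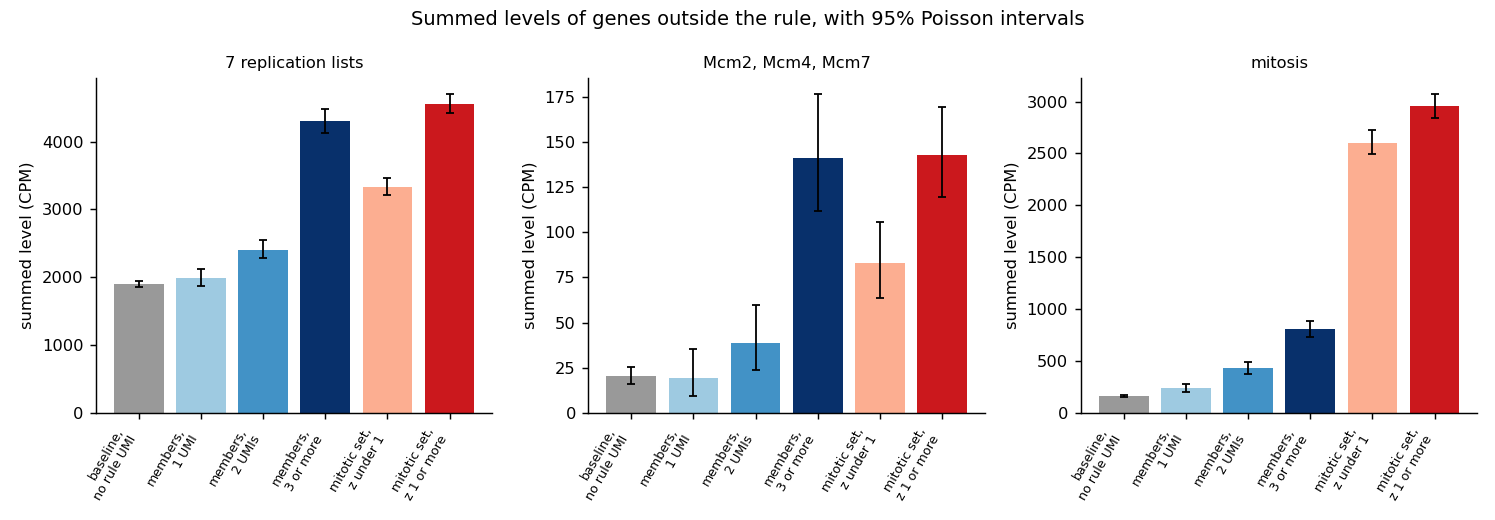
Bars give the summed CPM of the 7 replication lists, of Mcm2, Mcm4 and Mcm7, and of the mitosis list, with 95% Poisson intervals, in baseline cells without a rule UMI, in members by number of rule UMIs, and in mitotic-set cells by licensing z. Members with 3 or more UMIs reach 4301 CPM on the first panel, near the 4556 CPM of mitotic-set cells with z of 1 or more, and 808 against 2956 CPM on the last.

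These 38 cells were set beside the 67 mitotic-set cells whose licensing z was also at least 1, and, since those were not selected on 3 or more rule UMIs, also beside the 36 mitotic-set cells that held as many, a comparison added after seeing the data. The 7 lists stood at 4301 CPM in the 38 members and 4556 CPM in the 67 cells (0.944 times, 0.897 to 0.993), and Mcm2, Mcm4 and Mcm7 at 141 and 143 CPM (0.990 times, 0.738 to 1.32). Against the 36 cells these ratios were 0.972 (0.921 to 1.03) and 1.08 (0.786 to 1.48). The 36 cells were deeper, with a median of 18286 gene UMIs. Lists differed in direction between the 38 and the 67 cells. Helicase activation was lower in the 38 members (0.656 times, 0.520 to 0.822) and so was the list of clamp loading, single-strand binding and strand joining (0.867 times, 0.775 to 0.969). The list of G1/S control genes was higher (1.32 times, 1.22 to 1.43), but Ccnd1 and Ccnd2 supplied 348 and 502 of its 1152 UMIs in the 38 members, and without them the ratio was 1.12 (0.968 to 1.30). The intervals of origin licensing (1.15 times), polymerases (0.920), nucleotide supply (0.928), chromatin copying (1.08) and fork protection (0.875) held 1. Among single genes, Mcm10 (3.60 times, 1.28 to 11.6), E2f8, a repressor of the E2F family (4.57 times, 1.35 to 19.7) and Hells (2.004 times, 1.28 to 3.15) were higher in the 38 members. Dbf4, the activator of the kinase Cdc7 (0.504 times, 0.315 to 0.784), Gins2 (0.406 times, 0.181 to 0.823) and Rrm1 (0.493 times, 0.309 to 0.765) were lower. The 6 genes were picked from many after their values were seen, and some intervals can miss 1 by counting alone. Mcm10 rested on 13 and 6 UMIs and E2f8 on 11 and 4. Against the 36 cells, the lists of helicase activation, of clamp loading, single-strand binding and strand joining and of G1/S control and these 6 genes kept their direction, the polymerases stood at 1.06 times (0.897 to 1.25), and the interval of Gins2 (0.478 times, 0.206 to 1.03) then held 1.

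Mitotic genes outside the rule also differed between the 2 groups. A list of 25 such genes was at 808 CPM in the 38 members (735 to 887) and 2956 CPM in the 67 mitotic-set cells (2846 to 3069), a ratio of 0.273 (0.247 to 0.302), and the rule itself keeps cells with a higher mitotic z out of the members. Cenpf, a kinetochore protein, was at 30.8 and 286 CPM, Aurka, a spindle kinase, had 1 UMI in the 38 members and 61 in the mitotic-set cells, and Plk1, a mitotic kinase, was at 10.9 and 53.4 CPM. Replication-dependent histones were also lower in the 38 members, 0.484 times summed (0.420 to 0.556). Hist1h1b was at 61.6 and 133 CPM there, and at 4.17 CPM in baseline cells without a rule UMI. Hist1h2bc differed from the rest of that list, with 188 CPM in the 38 members, 157 in the mitotic-set cells and 488 in those baseline cells.

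**Figure D5:**
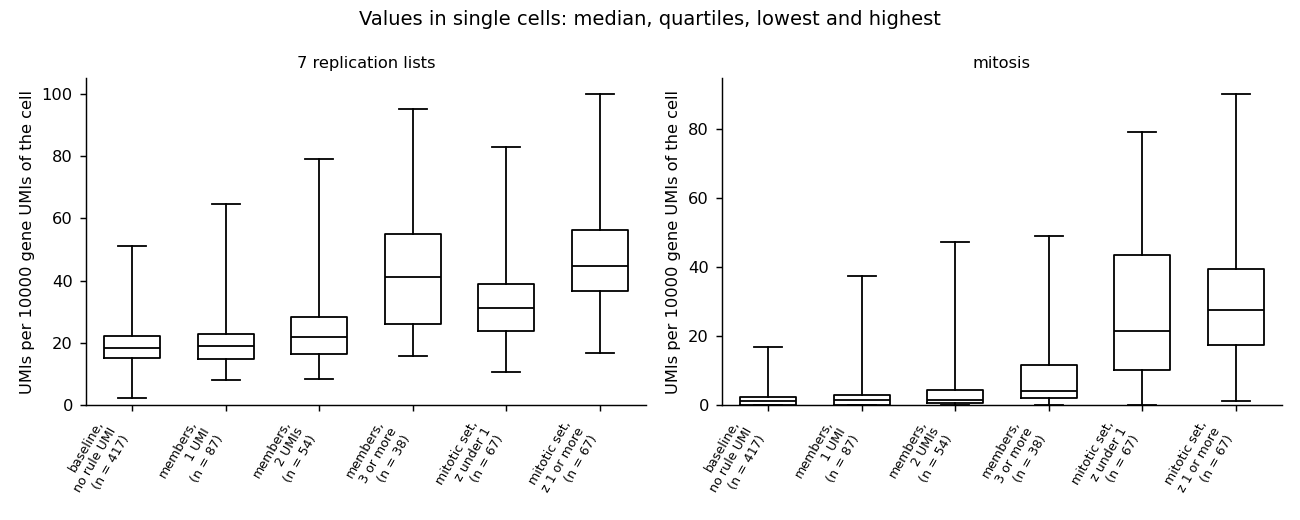
Boxes give the median and quartiles of single cells, and whiskers the lowest and highest cell, for UMIs of the 7 replication lists and of the mitosis list per 10000 gene UMIs. Members with 3 or more rule UMIs have a median of 41.2 on the first list, against 18.5 in baseline cells without a rule UMI and 44.8 in mitotic-set cells with z of 1 or more, and every pair of groups overlaps in range.

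Over all 179 members, the mitosis list was at 498 CPM (464 to 534), against 492 CPM in the other cells (482 to 502), a ratio of 1.01 (0.941 to 1.09). It was at 183 CPM in baseline cells and 2796 CPM in mitotic-set cells. Of 21 mitosis genes counted, 1 was at least 1.5-fold higher in members than in other cells (Aurkb, 10.1 and 5.18 CPM), about the 4.56% of all genes, and 2 were 1.5-fold lower (Aurka and Plk1), against 4.45% of all genes. Against baseline cells 19 were higher, where 8.77% of all genes were, and against mitotic-set cells all 21 were lower, where 12.1% of all genes were, and the rule favours both. Single members ranged from 0 to 49.0 UMIs of the list per 10000, with a median of 1.99, so the highest members lay above the median of mitotic-set cells, 26.3. After thinning to 3000 UMIs, 43.8% of members had a UMI of the list (36.4% to 51.4%), against 38.2% of baseline cells (34.0% to 42.7%) and 91.5% of mitotic-set cells (85.4% to 95.7%).

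Of 15 counted genes that control the passage from G1 to S phase, none was at least 1.5-fold higher in members than in other cells, and 1, E2f6, was lower, with 3 UMIs in members (0.287 times, 0.0583 to 0.858). Of all genes, 4.56% were past the fold on the higher side and 4.45% on the lower, so these counts and those of the CDK inhibitors and p53 targets below are near the background. Against baseline cells 4 of the 15 were higher, where 8.77% of all genes were, and 1 was lower, where 4.32% were. The list of 23 genes summed was 1.18 times as high in members as in other cells (1.14 to 1.23). The cyclin D genes Ccnd1 and Ccnd2 had ratios of 1.19 (1.11 to 1.28) and 1.15 (1.08 to 1.22), and Cdk6, their partner kinase, 1.45 (1.18 to 1.76). In the 38 members with 3 or more UMIs, E2f8 had 11 UMIs and E2f7 had 5, against 1 of each in 417 baseline cells, and the cyclin E gene Ccne2 had 7 against 3. None of 7 CDK inhibitor genes was past the fold in either direction. Cdkn2a was at 557 and 494 CPM (1.13 times, 1.05 to 1.21), and Cdkn1a at 18.9 and 20.2 CPM (0.936 times, 0.623 to 1.36). None of 9 counted targets of p53 was past the fold, and the summed ratio was 1.06 (0.950 to 1.18). In the 38 members, Cdkn1a was at 34.4 CPM, against 11.99 CPM in the 67 mitotic-set cells (2.87 times, 1.30 to 6.68).

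Fork protection and repair genes had 3 of 8 past the fold, against 4.56% of all genes, and the summed list had a ratio of 1.61 (1.43 to 1.81). Clspn was at 14.5 and 5.72 CPM, Msh6, a mismatch repair protein, at 15.1 and 8.85 CPM, and Tipin, which travels with the fork, at 36.5 and 22.4 CPM. None of the 4 genes of Polycomb repressive complex 2 was past the fold, the median ratio was 0.926, and Ezh2 was at 28.3 and 26.2 CPM. Among genes of nuclear import and chaperones, 1 of 14 was past the fold, Ranbp1, a partner of the transport factor Ran (1.69 times, 1.505 to 1.90), and among 19 genes of the nucleolus and ribosome making 1, Gnl3 (1.52 times, 1.27 to 1.81). With 4.56% of all genes past the same fold, these counts were near the background and say nothing particular of either list.

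Among all genes outside the 8 sets with a UMI in at least 10% of the higher group's cells, those with the highest ratios of members to other cells included Hells, Cenph, Gm26632, Spopl, Dis3, Rpa2, 2410002F23Rik, Tk1, Spp1, Faim2, Ccdc137, Rfc3, Dcaf17 and Pclaf. Of these, Hells, Rpa2, Tk1, Rfc3 and Pclaf are replication genes given above. Cenph, a kinetochore gene, was at 30.2 and 10.6 CPM (2.84 times, 2.03 to 3.91). Spp1, osteopontin, had a ratio of 2.36, but 148 of its 328 UMIs in members came from 2 cells, and without them it was 1.32 (1.13 to 1.54). The lowest included Tff1, Unc13b, Cxcl1, Actr1b, Txndc15, Pcyox1l, Cr1l, Gtf2a1 and Ufd1. Against baseline cells the 10 highest were Pclaf, Smc2, Esco2, Tacc3, Tk1, Spc24, Cenpf, Cdc20, Spp1 and Birc5. Without its 2 highest cells, the ratio of Spp1 to baseline was 2.71 (2.22 to 3.30) in place of 4.84. Smc2, a condensin subunit, was at 30.2 and 2.82 CPM, and Esco2, which acetylates cohesin during replication, at 24.6 and 2.82 CPM. Against mitotic-set cells the 10 lowest were Aurka, Fadd, Cenpf, Plk1, Ckap2l, Tpx2, Ccnb1, Nusap1, Ccnb2 and Prc1. The rule sets these groups apart by their mitotic z, so low mitotic genes are a description here. The 10 highest were Elmod2, Tff2, Faim2, 1700084E18Rik, 2010204K13Rik, Gm26632, 4933431E20Rik, Lratd2, Gpr137b and Efna5, each with at most 40 UMIs in members. In 2 cells lay 18 of the 40 UMIs of Tff2 and 15 of the 39 of Gpr137b. Without those cells, the ratio to mitotic-set cells was 2.19 (1.02 to 4.995) in place of 3.87 for Tff2 and 1.72 (0.867 to 3.53) in place of 2.77 for Gpr137b, and the ratio of Tff2 to other cells was 0.838 (0.518 to 1.29) in place of 1.48.

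Gastric identity genes were compared between members and both the other cells and the baseline cells. The 4 pit cell genes were all at least 1.5-fold lower in members than in other cells, where 4.45% of all genes were. Muc5ac, the pit cell mucin, had 5 UMIs in members and an interval that held 1 (0.535 times, 0.170 to 1.29). None of the 4 was 1.5-fold lower than in baseline cells, where 4.32% of all genes were. Tff1, a pit cell trefoil peptide, was at 103 CPM in members, 324 CPM in other cells and 81.0 CPM in baseline cells, and 4590 of its 6172 UMIs in kept cells were in the 122 cells led by Cyba and Gsta1. With those cells left out of the comparison, the ratio of members to other cells was 1.25 (1.06 to 1.47) in place of 0.316. For the pit cell genes Gkn1 and Gkn2 it was then 1.43 (1.06 to 1.89) in place of 0.477 and 1.30 (0.883 to 1.86) in place of 0.501. For Muc5ac it was 1.24 (0.383 to 3.12) in place of 0.535. Thus none of the 4 was lower in members once those cells were left out. The progenitor genes Sox9 and Lgr5 had ratios of 1.12 (0.938 to 1.33) and 1.12 (0.470 to 2.32), and Cd44 of 1.34 (1.02 to 1.73). Other genes of the list went the other way. The 6 counted had a median ratio of 0.875, and all 8 genes summed were at 0.923 times the other cells (0.861 to 0.989). None of the 6 stem and progenitor genes, 4 fetal or regenerative genes, 2 mucous neck cell genes and 9 stress genes counted was past the fold against other cells in either direction. Against baseline cells, 2 of the 6 stem and progenitor genes, Axin2 and Lrig1, were past the fold on the lower side (0.661 times, 0.399 to 1.05, and 0.644 times, 0.418 to 0.960), where 4.32% of all genes were. The list summed was at 0.967 times (0.897 to 1.04). In the same comparison, where 8.77% of all genes were past the fold on the higher side, Tff2, a trefoil peptide of mucous neck cells, was among them (2.75 times, 1.77 to 4.23). Without the 2 members that held 18 of its 40 UMIs, the ratio of Tff2 to baseline was 1.56 (0.899 to 2.61). The 3 mucous neck cell genes summed were at 0.996 times the baseline (0.947 to 1.05). Parietal, tuft and chief cell markers had too few UMIs for a counted ratio. Pgc, the chief cell pepsinogen gene, was at 16.4 CPM in members and 0.881 CPM in baseline cells (18.6 times, 7.02 to 62.0), with all of its 26 UMIs in members in 2 cells. Of these UMIs, 25 were in 1 cell among the 38 members with 3 or more rule UMIs. Markers of endocrine cells had no UMI in members, and a count of 0, taken to allow up to 3 cells of the 179, allows a share of cells with a UMI of up to 1.68% for each.

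Members were found under both tags of the library. CMO301 was the highest tag in 102 members, or 57.0% (49.4% to 64.4%), and in 56.1% of all kept cells. The labels do not say what the tags stand for. Within CMO301 cells the ratio of Mcm2, Mcm4 and Mcm7 between members and other cells was 2.22, and within CMO302 cells 1.36. The ratio of the 7 replication lists was 1.35 and 1.30.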

How the data were processed

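The authors deposited a matrix of raw UMI counts, 1 whole number per feature and barcode, for 1 library. Cell Ranger 6.1.2 and GRCm38/mm10 are named in the submitters' processing notes, and the annotation used for counting is not given in the sources used here. The deposited feature and barcode lists hold other values, names only. From the counts, the filter, the z-scores and the members were recomputed over 32285 genes, and tag UMIs were kept out. Members and gene lists were chosen with earlier results of these data known.

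CPM carry exact Poisson intervals, shares exact Clopper-Pearson intervals and ratios exact conditional binomial intervals, at 95%. A ratio was counted for genes with at least 100 UMIs over the kept cells and called at 1.5-fold. Named genes are those of 29 lists, plus the highest and lowest ratios among genes outside the 8 sets with a UMI in at least 10% of the higher group's cells, 15 highest and 10 lowest against other cells, 10 and 10 against mitotic-set cells and 10 highest against baseline cells. A few genes are not reported here by name. Genes named within lists as examples were chosen after their values were seen. Doublets were called with Scrublet in scanpy 1.11.5 at an expected rate of 1.51%. It marked 12 cells, which were counted and not removed, as the rule does not remove them. Gene coordinates are from GENCODE M21 and promoter windows from RefSeq. Only the ratios and their intervals were tested on simulated data, as Poisson counts with known changes and no spread between cells. The filter, the z-scores, the rule and the thinning were not tested in this way. Alternatives were other filters, a z of 1.5, thinning to 3000 UMIs, means over cells, depth groups, each tag alone and a rule gene dropped.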

Additional observations from a re-analysis of the deposited data

How the results depend on the processing

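No paired analysis was possible because the series gave a single library. Over 17 settings, 41 recomputed values of the main results lay inside the reported counting interval (for the share of genes, within 1.5 times of it) and 26 moved outside, none of them to a called value of opposite direction. Of the results for single genes, 1 stayed and 5 moved. Depth groups other than the middle one, members with 2 or more rule UMIs only, and the omission of cells with a Y-linked UMI were chosen after seeing the data. The cause of a shift was not tested.

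The share of members was 5.29% with z of at least 1.5, 12.04% in the shallowest cells and 6.65% in the deepest. The ratio of Mcm2, Mcm4 and Mcm7 between members and other cells, 1.87 as reported, was 2.89 with z of at least 1.5, 1.36 in CMO302 cells, 1.09, 1.29 and 2.73 in the shallowest, middle and deepest cells, and 2.52 for members with 2 or more rule UMIs. The ratio of the 7 replication lists, 1.33 as reported, was 1.65 with z of at least 1.5, 1.22 after thinning to 3000 UMIs, 1.23 with means over cells, 1.13, 1.08 and 1.65 by depth in the same order, and 1.54 for members with 2 or more rule UMIs. The ratio of the mitosis list, 1.01 as reported, was 1.43 with z of at least 1.5, 1.25 after thinning, 1.30, 0.786 and 1.22 by depth, and 1.27 for members with 2 or more rule UMIs. The share of members with CMO301 was 65.6% in the middle depth group. The share of genes at least 1.5-fold higher, 4.56%, was 1.59% with at least 300 UMIs, 0.670% at a fold of 2 and 10.3% after thinning. Depth limited the rarest genes: of the 87 replication genes, 26 had under 100 UMIs and no counted ratio.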
